A study of Mus musculus with 8 samples.

Results

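DNA methylation of 6 genes for cyclin-dependent kinase inhibitors, Cdkn1a, Cdkn1b, Cdkn2a, Cdkn2b, Cdkn2c and Cdkn2d, was described in mouse hematopoietic stem cells that had lost the autophagy gene Atg12. The members are CpGs from 5 kb before to 5 kb after each gene in the RefSeq table for GRCm38.p6, the mm10 build, with both strands of a CpG merged. A CpG was kept with 10 or more reads in at least 3 mice of each group, which left 745 of the 1310 CpGs listed for any mouse in these 6 windows, of 1278034 autosomal CpGs kept by the same rule. The 6 genes are among 20665 autosomal protein-coding genes in the table. The family member Cdkn1c is imprinted and is not among them.

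The cells came from bone marrow of C57BL/6 mice by a sort for Sca-1+, c-Kit+ and CD150+ cells without CD48, Flk2 or lineage markers, and were not cultured. The 4 conditional knockout mice (cKO 25, 28, 45 and 46) carried Atg12fl/fl with Mx1-cre, and the 4 controls (1, 34, 36 and 37) are given as Atg12flox/flox without Cre in the design text and as WT in their genotype labels, so their loxP status is not settled. Mice of both groups were given poly(I:C) at 4 weeks of age, and cells were taken 2 to 3 months later, each library from a separate mouse. Mx1-Cre responds to interferon and acts in many cell types, so the deletion is not limited to stem cells. Methylation was read by enhanced reduced representation bisulfite sequencing, which sequences CpG-rich restriction fragments after unmethylated cytosines have been turned into thymine. The tables hold no transcripts, so neither the cell type nor the expression of these genes was measured here.

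Inhibitors of cyclin-dependent kinases restrain entry into the cell cycle. The Ink4 proteins p16 and p15 (Cdkn2a and Cdkn2b), p18 (Cdkn2c) and p19Ink4d (Cdkn2d) bind CDK4 and CDK6 and block their activation by D cyclins, while the Cip/Kip proteins p21 (Cdkn1a) and p27 (Cdkn1b) bind cyclin and kinase complexes more widely. Several of them are known to hold blood stem cells in quiescence, and promoter methylation of the p15 and p16 genes is known from human blood cancers.

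The libraries were deep at these genes. The tables listed 2038266 to 3366162 cytosines per mouse, and the 1087161 autosomal CpGs common to all 8 mice had a median coverage of 212 to 293 reads per mouse. At the 6 genes the median coverage of the kept CpGs lay between 251.5 reads for Cdkn1b and 412 reads for Cdkn1a. Cytosines on Y made up 7.9 to 9.01 per 10000 listed cytosines in the cKO mice and 1.15 to 1.83 in the controls, so each genotype comparison below is also a comparison of mice that differ in Y content, and the effects of these cannot be told apart. Cytosines on X made up 1.83 to 1.93% of those listed in the cKO mice and 2.42 to 2.54% in the controls. Mean methylation of X CpGs covered in all mice was 35 to 35.5% in the cKO mice and 43.1 to 50.7% in the controls. No label states a sex. The ratio of median coverage at CpGs methylated in all mice to that at CpGs unmethylated in all mice was 0.338 to 0.552 in the cKO mice and 0.256 to 0.734 in the controls, lowest in control 34 and, among the cKO mice, in cKO 25. Of the 239778 autosomal CpGs with a mean level of 5 to 95% in all mice, 41.7% stood at exactly 0 or 100% in cKO 45, the highest share of the 8 mice, against 12.7% in control 36, the lowest.

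Upstream sequences of the starts are shown to place the measured CpGs. They are the 250 bases before the start in the RefSeq promoter table for GRCm38.p6, 5′ to 3′ on the strand of the gene, with the CpGs kept here in capitals. The table gives 9 starts for the 6 genes. For Cdkn1a the downstream start lies at chr17:29093519-29093768 (these bases, plus strand), and for Cdkn1b the bases are chr6:134920151-134920400 (plus strand). Cdkn2a, on the minus strand, has an upstream start for the Arf transcript (chr4:89294620-89294869) and a downstream start for the p16 transcript (chr4:89282193-89282442). They are shown because both products come from this gene and only the Arf start was densely covered. Cdkn2b is at chr4:89311033-89311282 (minus strand), and is shown for the smallest permutation p among the starts.
Cdkn1a, downstream start: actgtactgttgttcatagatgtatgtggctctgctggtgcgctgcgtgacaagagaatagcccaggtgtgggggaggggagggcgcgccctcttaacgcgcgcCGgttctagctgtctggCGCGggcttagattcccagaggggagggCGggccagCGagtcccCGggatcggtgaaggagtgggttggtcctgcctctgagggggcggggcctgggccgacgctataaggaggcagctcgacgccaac
Cdkn1b: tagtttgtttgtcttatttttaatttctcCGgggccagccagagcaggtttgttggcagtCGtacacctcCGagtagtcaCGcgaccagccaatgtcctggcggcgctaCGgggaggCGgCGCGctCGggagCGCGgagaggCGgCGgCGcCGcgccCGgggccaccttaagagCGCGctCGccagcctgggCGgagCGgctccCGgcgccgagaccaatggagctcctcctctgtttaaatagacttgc
Cdkn2a, Arf start: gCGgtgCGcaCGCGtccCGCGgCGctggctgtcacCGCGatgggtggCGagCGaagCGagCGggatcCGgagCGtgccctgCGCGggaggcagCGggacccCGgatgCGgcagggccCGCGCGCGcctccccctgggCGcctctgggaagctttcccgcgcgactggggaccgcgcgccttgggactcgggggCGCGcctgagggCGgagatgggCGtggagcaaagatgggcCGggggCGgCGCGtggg
Cdkn2a, p16 start: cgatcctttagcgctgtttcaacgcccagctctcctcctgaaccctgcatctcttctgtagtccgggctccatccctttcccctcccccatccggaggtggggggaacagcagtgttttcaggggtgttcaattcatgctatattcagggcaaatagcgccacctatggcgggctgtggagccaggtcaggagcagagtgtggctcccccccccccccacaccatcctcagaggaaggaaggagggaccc
Cdkn2b: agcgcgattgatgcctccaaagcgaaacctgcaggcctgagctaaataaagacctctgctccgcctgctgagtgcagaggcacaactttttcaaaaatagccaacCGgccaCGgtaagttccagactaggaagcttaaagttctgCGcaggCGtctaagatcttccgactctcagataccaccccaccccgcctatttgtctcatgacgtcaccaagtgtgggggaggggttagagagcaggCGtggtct

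The CpGs measured in these upstream sequences had low levels, at most 3.54% in mean over the mice, with 27.2% at Cdkn2b in cKO 45 as the highest value of a single mouse. At the Arf start 33 of 40 CpGs were kept and averaged 0.0662% in the cKO mice and 0.227% in the controls, and at Cdkn1b 22 of 28 were kept, with 0.14% in the cKO mice and 0.019% in the controls over the 21 of them covered in all mice. The p16 start has 7 CpGs in its 250 bases, none of which was kept, so its upstream sequence was not measured. The same holds for the upstream start of Cdkn1a, with 2 CpGs, and the downstream start of Cdkn2c, with 6. Across the 32851 sequences in the promoter table the median was 6 CpGs, and 98.7% had fewer than the Arf start.

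Motifs were searched in the same 250 bases on both strands, as a description of the sequences. The GC box GGGCGG, bound by Sp1-type factors, occurred 2 times at the downstream Cdkn1a start, 1 time at Cdkn1b, 2 times at the Arf start, 3 times at the upstream Cdkn2c start and 3 times at Cdkn2d, and at 32.7% of all promoters. The letters TATAA occurred 1 time at each Cdkn1a start and at no other member start, and at 22.8% of all promoters. The letters CCAAT occurred 2 times at Cdkn1b and 1 time at Cdkn2d, and at 33.8% of all promoters. The GC box holds a CpG, so it overlaps the capitals in places.

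The 6 genes were mostly unmethylated in both genotypes. Of the 745 CpGs, 705, or 94.6%, had a mean level under 5% over the mice, against 56.2% of all autosomal CpGs kept, and 161 showed no methylated read in any mouse. Within 1 kb of a start 437 of 439 CpGs were under 5%, and elsewhere in the windows 268 of 306 were. Low levels at starts were general in these data. Of all 15739 measured gene starts, 83.5% had a mean under 5%, and the median start was at 0.313%. The share of single CpGs under 5% near all gene starts was not computed. All 152 CpGs of Cdkn1b and all 51 of Cdkn2b were under 5%. The other 40 CpGs of the 745, all in Cdkn1a, Cdkn2a, Cdkn2c and Cdkn2d, lay for the most part in short patches away from the starts.

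**Figure D1:**
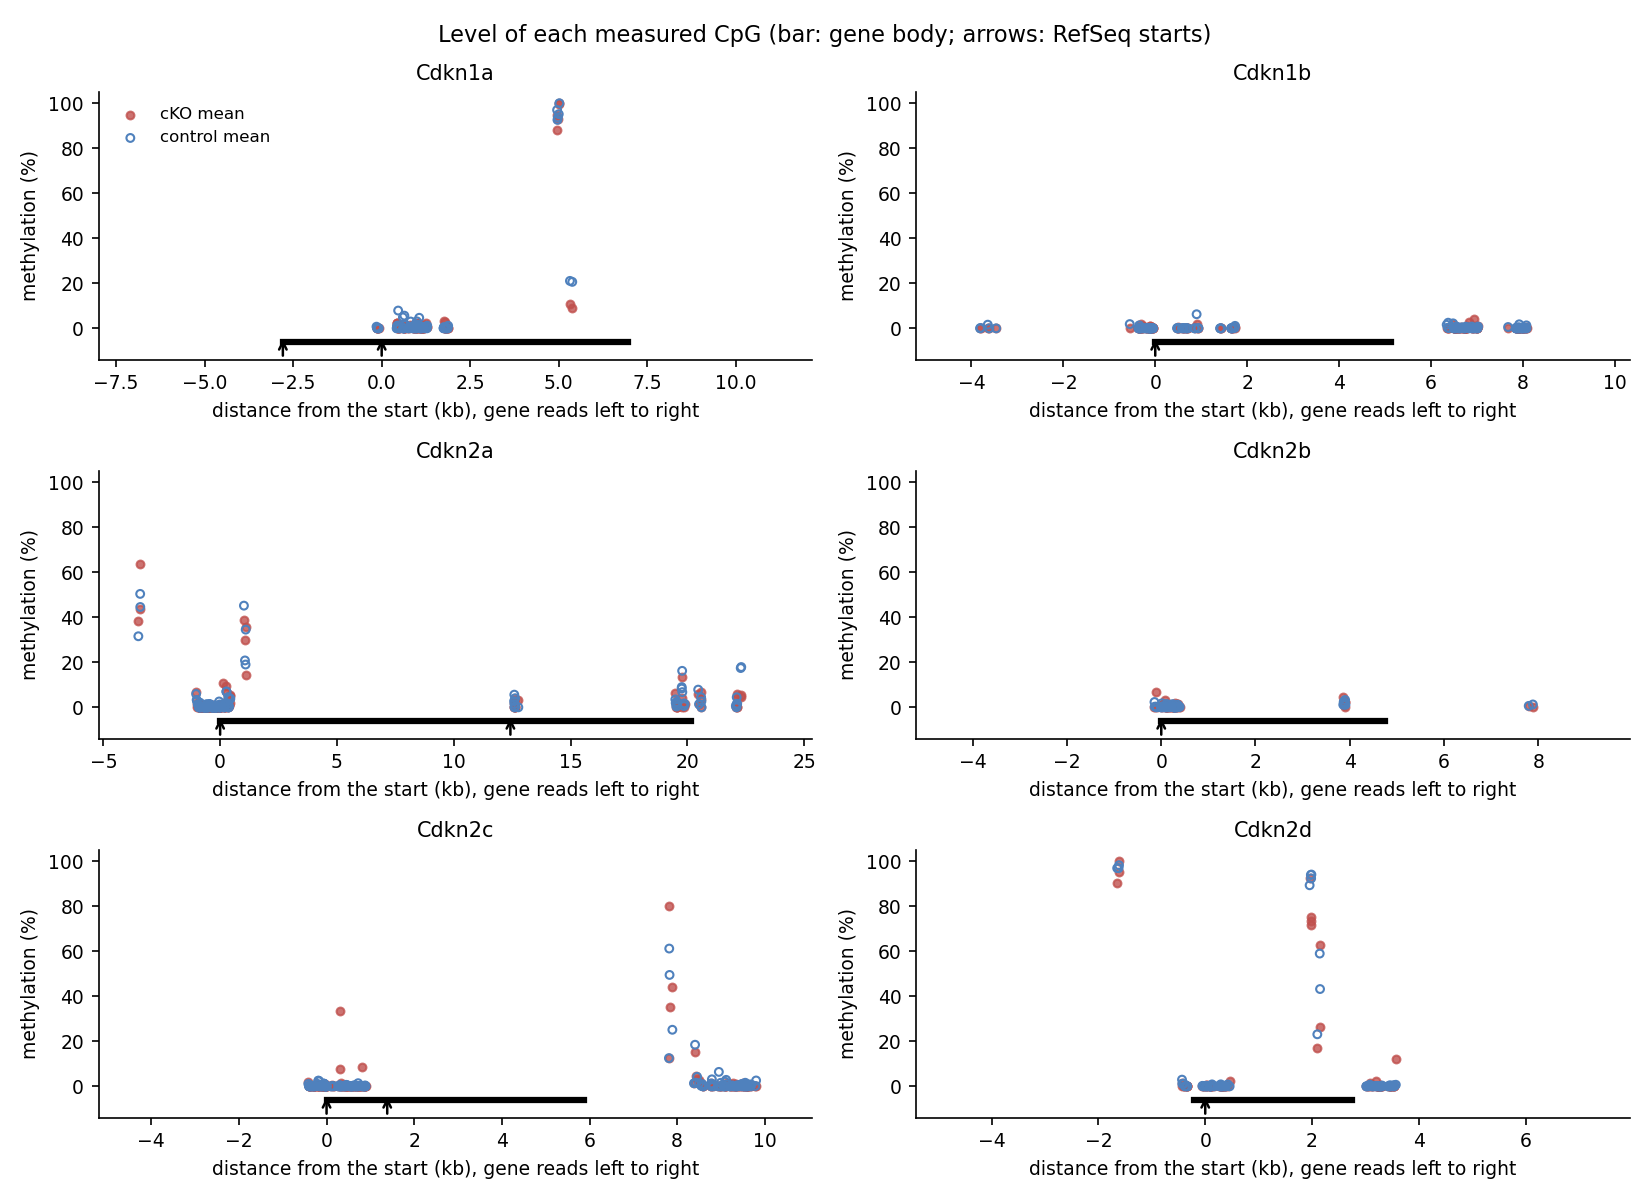
Mean methylation (%) of each kept CpG in the cKO mice (filled) and the controls (open) against its distance in kb from the start with the most CpGs, with the gene as a bar and its RefSeq starts as arrows. Levels at the starts are at or near 0% except for single CpGs such as 109666445 of Cdkn2c, and levels above 50% appear in Cdkn1a, Cdkn2a, Cdkn2c and Cdkn2d, away from the starts.

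The windows as a whole ranked low among genes. Mean methylation over the 8 mice was lowest for Cdkn1b at 0.221%, followed by Cdkn2b at 0.694%, Cdkn2c at 1.16%, Cdkn2a at 2.5%, Cdkn1a at 6.13% and Cdkn2d at 7.33%. The median over the 16114 gene windows with at least 5 CpGs covered in all mice was 18.9%, and 5.52% of windows were lower than Cdkn1b and 26.6% lower than Cdkn2d. In that order neighbours overlapped in their ranges over the mice for Cdkn2b and Cdkn2c, for Cdkn2c and Cdkn2a and for Cdkn1a and Cdkn2d, and did not overlap for Cdkn1b and Cdkn2b or for Cdkn2a and Cdkn1a. Spread between mice was also small for Cdkn1b, with an SD of 0.054 points over the 8 mice, lower than in all but 0.652% of gene windows. Its mean of 0.221% leaves little room for spread, so this rank is no separate sign of stability. The spread was largest for Cdkn2d at 1.52 points.

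No member window, start, tile or CpG differed by genotype past the threshold. Each feature was tested by a logistic model with moderated quasi-binomial spread, fitted to all features of its kind, with Benjamini-Hochberg adjustment over all of them at 0.05. Of the 745 CpGs, 35 had a mean level of 5 to 95% and were tested, and 0 were called, where 24 of 313039 autosomal CpGs, or 0.00767%, were called. At an unadjusted p under 0.05 there were 3 of the 35, or 8.57%, against 6.52% of all tested CpGs, and limma on percentages had 0 calls and 1 at that level, against 3.65% of all tested CpGs with limma. Of the 35, 1 had groups that did not overlap, against 3.11% of all tested CpGs. Windows and starts were tested between 1 and 99%. In that range were 4 of the 6 windows and 1 of the 8 measured starts, with 0 called, against 0 of 14600 windows (0%) and 0 of 5214 starts (0%). All 4 tested tiles of 1 kb stayed uncalled as well, against 0 of 40477 (0%), and none of these 4 reached an unadjusted p under 0.05 with this model or with limma, where 6.53% of all tiles did with the model. Among the member windows this level was reached by 1 of 4, against 2.95% of all windows, by 1 with edgeR, against 2.4% of all windows, and by 0 with limma, against 4.58%. The tested start did not reach it, against 6.06% of all tested starts. None of the tested windows, tiles or starts had groups that did not overlap, where 2.75% of all windows, 3.36% of all tiles and 2.97% of all starts did.

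**Figure D2:**
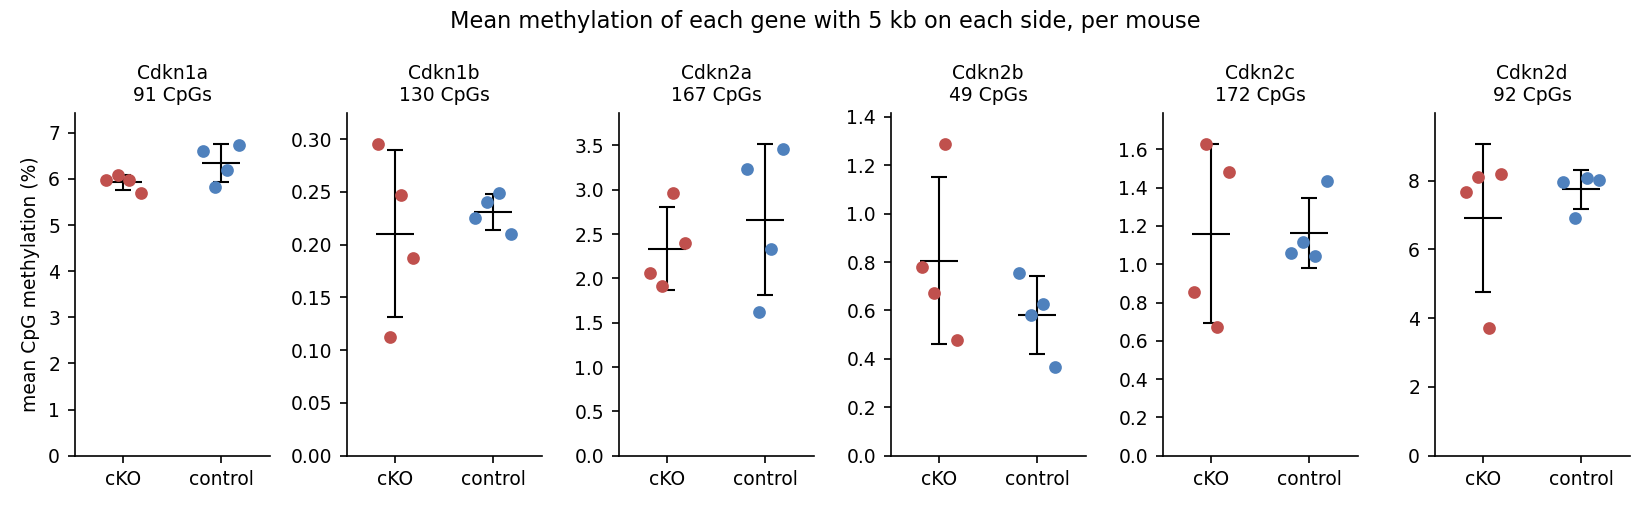
Mean CpG methylation (%) of each gene with 5 kb on each side, 1 point per mouse, cKO left of control, with the mean and SD of 4 mice as bars and a separate axis from 0 for each gene. The groups overlap for all 6 genes, and cKO 45 lies at 3.72% for Cdkn2d where the other 7 mice lie between 6.92 and 8.18%.

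Among the Cip/Kip genes, Cdkn1a encodes p21, a target of p53 that arrests the cycle after DNA damage. It spans 29090979 to 29100722 on chromosome 17. Its 91 CpGs covered in all mice averaged 5.97%, 6.08%, 5.97% and 5.69% in cKO 25, 28, 45 and 46, against 6.6%, 5.82%, 6.2% and 6.73% in controls 1, 34, 36 and 37. Control 34 lay within the cKO range and the other controls above it. The difference was -0.412 percentage points with a 95% interval from -1.04 to 0.253 (cKO mean 5.93% ± 0.166, control mean 6.34% ± 0.412, SD, n = 4 each; two-sided exact permutation p = 0.171; quasi-binomial adjusted p = 1). With each mouse left out in turn the exact permutation p was 0.171 to 0.286, except without control 34, where the difference was -0.584 points and the groups did not overlap (exact permutation p = 0.0286, the smallest this test can give). Control 34 had the lowest coverage of methylated CpGs. Without it 24.5% of all windows reached an unadjusted p under 0.05 in the quasi-binomial model on summed reads, against 2.95% with all 8 mice. Nearly all of them were lower in the cKO mice. The share of all windows whose unweighted means did not overlap without control 34 was not computed. Whether the permutation p without control 34 is particular to Cdkn1a was therefore not tested.

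The start region of Cdkn1a was unmethylated and its body held both a methylated and a partly methylated patch. Within 1 kb of the downstream start 43 CpGs averaged 0.571% ± 0.0983 in the cKO mice and 0.932% ± 0.585 in the controls. At the upstream start no CpG was covered in all mice. From 29098721 to 29098784, inside the gene and 4952 bp past the downstream start, 5 CpGs averaged 95.1% ± 3.3 in the cKO mice and 95.7% ± 1.25 in the controls, and the CpG at 29098784 was at 100% in all 8 mice. Levels were lower a little further on. At 29099084 and 29099149 the pair of CpGs averaged 9.03%, 15.3%, 7.65% and 7.81% in the cKO mice, against 25.3%, 7.19%, 20.3% and 30.7% in the controls, with 607 to 914 reads per mouse over the pair. All controls but control 34, the lowest of the 8 mice, were above every cKO mouse. The difference of -10.9 points had an interval from -23 to 8.06 (exact permutation p = 0.143), and the CpG at 29099149 had an unadjusted p of 0.0269 (quasi-binomial adjusted p = 0.754). Which parts of the gene are exons is not given in the gene table.

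Cdkn1b encodes p27, which holds resting cells out of the cycle and is removed by the ubiquitin ligase subunit Skp2. It spans 134920401 to 134925525 on chromosome 6. Its 130 CpGs covered in all mice averaged 0.295%, 0.112%, 0.247% and 0.187% in the cKO mice, against 0.225%, 0.24%, 0.249% and 0.21% in the controls, so the controls lay inside the cKO range. The difference was -0.0204 points, with an interval from -0.137 to 0.0853 (exact permutation p = 0.657). Its start region, 42 CpGs, was at 0.214% ± 0.342 in the cKO mice and 0.175% ± 0.143 in the controls (SD, n = 4 each), with cKO 25 at 0.726%. A further 81 CpGs lay past the end of the gene, towards the lncRNA gene Lockd, at 0.219% ± 0.124 in the cKO mice and 0.242% ± 0.0603 in the controls. At 134927331, the CpG with the largest spread, cKO 45 had 16.3% and the other mice at most 0.564%.

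Among the Ink4 genes, Cdkn2a encodes p16 and, from another reading frame, Arf, which stabilises p53. It spans 89274473 to 89294619 on chromosome 4, with Cdkn2b next to it. Its 167 CpGs covered in all mice averaged 2.06%, 1.91%, 2.97% and 2.4% in the cKO mice, against 3.24%, 1.62%, 2.33% and 3.46% in the controls. Control 34 was the lowest of the 8 mice and controls 1 and 37 the highest. The difference was -0.329 points with an interval from -1.55 to 1.35 (cKO mean 2.33% ± 0.469, control mean 2.66% ± 0.851, SD, n = 4 each; exact permutation p = 0.571; quasi-binomial adjusted p = 1).

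The Arf and p16 starts were measured to different depths. Around the Arf start 129 CpGs averaged 0.412% ± 0.0679 in the cKO mice and 0.529% ± 0.122 in the controls, a difference of -0.117 points with an interval from -0.376 to 0.0501 (exact permutation p = 0.171). Within 1 kb of the p16 start only 7 CpGs, with 401 to 828 reads per mouse in sum, could be used. All 7 lay in a short stretch 159 to 200 bp past the start. They were at 0.655%, 2.65%, 0% and 0% in the cKO mice, against 4.29%, 0.34%, 3.53% and 0% in the controls, a difference of -1.21 points with an interval from -4.29 to 2.65 (exact permutation p = 0.343; quasi-binomial adjusted p = 0.942). Values of 0% occurred in both groups. A difference of a few points at the p16 start was therefore not detectable here, while at the Arf start the interval was narrower than 1 point.

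Methylation in Cdkn2a was higher at the edges of the Arf region, in both genotypes. At 1019 to 1095 bp past the Arf start, from 89293524 to 89293600, 4 CpGs averaged 29.2%, 26.2%, 37.2% and 26.4% in the cKO mice, against 37.5%, 24.8%, 26.3% and 31% in the controls. The groups covered nearly the same range, and the interval of the difference ran from -11.3 to 12.4 points (adjusted p of the tile = 0.973). On the other side, 3419 to 3501 bp before the Arf start and inside the lncRNA gene Gm12610, 3 CpGs were at 34.7%, 41.1%, 74.7% and 43.5% in the cKO mice, against 57.4%, 17.5%, 38.3% and 55.5% in the controls. The highest mouse was cKO 45, with 320 reads over these CpGs, and the lowest control 34. The mean difference of 6.32 points and the model's difference on summed reads of -4.96 points had opposite signs (adjusted p = 0.937). At 89298038 alone cKO 45 was at 100%, against 17.9 to 30.4% in the other cKO mice and 10.9 to 69.4% in the controls. Group means at this CpG were 43.7% in the cKO mice and 44.6% in the controls. The unadjusted p on its read counts was 0.0419 (quasi-binomial adjusted p = 0.763). At 89293556, 1063 bp past the Arf start, the cKO mice averaged 30% ± 7.51 and the controls 20.8% ± 6.13 (adjusted p = 0.772). At 89274856, near the far end of the gene, the cKO mice averaged 1.34% ± 2.68 and the controls 8.99% ± 8.59 (adjusted p = 0.78).

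Cdkn2b encodes p15, an inhibitor induced by TGF-beta. It spans 89306289 to 89311032 on chromosome 4, inside the lncRNA gene Gm12610. Its 49 CpGs covered in all mice averaged 0.781%, 0.673%, 1.29% and 0.478% in the cKO mice, against 0.755%, 0.581%, 0.627% and 0.368% in the controls, with overlapping groups. The difference was 0.222 points with an interval from -0.277 to 0.92 (exact permutation p = 0.314). Of these CpGs 41 lay within 1 kb of the start, at 0.726%, 0.552%, 0.787% and 0.459% in the cKO mice, against 0.279%, 0.486%, 0.459% and 0.231% in the controls. Only cKO 46 fell inside the control range. The difference of 0.267 points had an interval from -0.0269 to 0.556 (exact permutation p = 0.0571), and both groups were too low for the model fitted to all starts. With each mouse left out in turn it was 0.215 points (without cKO 45) to 0.325 points (without cKO 46), with an exact permutation p of 0.0286 without cKO 46 and of 0.0571 to 0.143 in the 7 other cases. The CpG at 89311136, among the 41 at the start, lies 104 bp before it and in the sequence shown above. It was at 27.2% in cKO 45, at 1.16% in control 36 and at 0% in the other mice. This single CpG makes up a large part of the 0.787% of cKO 45, whose place above the controls depends on it. The difference at the start without this CpG was not computed.

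Cdkn2c encodes p18, whose loss is known to expand mouse blood stem cells. It spans 109660876 to 109666756 on chromosome 4. Its 172 CpGs covered in all mice averaged 0.854%, 1.63%, 0.675% and 1.48% in the cKO mice, against 1.06%, 1.11%, 1.04% and 1.43% in the controls. The controls lay inside the cKO range. The difference was -0.00274 points with an interval from -0.759 to 0.585 (exact permutation p = 1; quasi-binomial adjusted p = 1). The 106 CpGs around the upstream start were at 0.259% ± 0.223 in the cKO mice and 0.221% ± 0.143 in the controls, and the 47 around the downstream start, some of them the same, at 0.261% ± 0.362 in the cKO mice and 0.13% ± 0.0602 in the controls (SD, n = 4 each).

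Partial methylation in the Cdkn2c window lay past the end of the gene. From 109658930 to 109658944, 1932 bp beyond it, 3 CpGs averaged 33.5%, 43.7%, 33.3% and 60.3% in the cKO mice, against 36.5%, 45.9%, 39.6% and 42.3% in the controls. The value of cKO 45 came from 120 reads, all at 0% at both outer CpGs and at 100% at the middle one. The 1 kb tile that holds them, with 12 CpGs, was at 13.1% ± 4.06 in the cKO mice and 12.6% ± 0.984 in the controls (quasi-binomial adjusted p = 0.942). At 109658866 the 3 cKO mice with enough reads were at 30.3%, 43.2% and 58.8%, against 28.9%, 21.8%, 23.5% and 26.3% in the controls. These groups did not overlap, and the fit, from which cKO 45 was dropped, gave an adjusted p of 0.771. At 109666445 near the upstream start, cKO 28 was at 100% and the other 5 mice with enough reads at 0%, with 13 to 41 reads, and cKO 45 and control 1 were dropped.

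Cdkn2d encodes p19Ink4d. It spans 21288459 to 21291421 on chromosome 9, between the genes Kri1 and Ap1m2, both of which reach into its window. Its 92 CpGs covered in all mice averaged 7.67%, 8.1%, 3.72% and 8.18% in the cKO mice, against 7.96%, 6.92%, 8.07% and 8.03% in the controls. Apart from cKO 45 the groups overlapped closely. The difference was -0.826 points with an interval from -4.35 to 1.27 (cKO mean 6.92% ± 2.14, control mean 7.75% ± 0.555, SD, n = 4 each; exact permutation p = 0.714), and it was 0.24 points, in the other direction, without cKO 45. On reads summed over the window the quasi-binomial model gave -1.62 points with an unadjusted p of 0.0309 and an adjusted p of 1. Over all windows the median of that difference was -0.723 points, while the median difference of unweighted means was -0.0191 points.

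The methylated CpGs of Cdkn2d lay mostly in the body of the gene and before its start. The start region itself, 45 CpGs, was at 0.146% ± 0.113 in the cKO mice and 0.237% ± 0.203 in the controls. From 21289221 to 21289231, 1978 to 1988 bp past the start, 3 CpGs averaged 92.3%, 100%, 6.15% and 95.5% in the cKO mice, against 98.5%, 89.7%, 93.1% and 92.5% in the controls. Every mouse but cKO 45 was near full methylation. Over these CpGs cKO 45 had 171 reads, cKO 46 had 161 and cKO 28 had 204. At 21289231 cKO 45 was at 0% and the other mice between 83.7 and 100% (quasi-binomial adjusted p = 0.813). From 21289059 to 21289110, under 200 bases away, 3 CpGs averaged 41.1%, 24.9%, 24.8% and 50.7% in the cKO mice, against 45.9%, 13.4%, 56.1% and 51.7% in the controls, with control 34 lowest. The 1 kb tile with both patches was at 54.4% ± 26.4 in the cKO mice and 67.6% ± 10.8 in the controls (adjusted p = 0.849). Before the start, from 21292824 to 21292858, 3 CpGs were at 100%, 100%, 80.5% and 100% in the cKO mice, against 97.1%, 100%, 94.4% and 97.9% in the controls, with 69 reads in the thinnest library, cKO 28. At 21292858 cKO 45 was at 61%, the other cKO mice were at 100% and the controls between 92.7 and 100%. The unadjusted p there was 0.0305 (quasi-binomial adjusted p = 0.758). At 21287640, past the end of Cdkn2d and inside Kri1, cKO 28 was at 49.2% and the other mice at most at 2.78% (quasi-binomial adjusted p = 0.792).

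**Figure D3:**
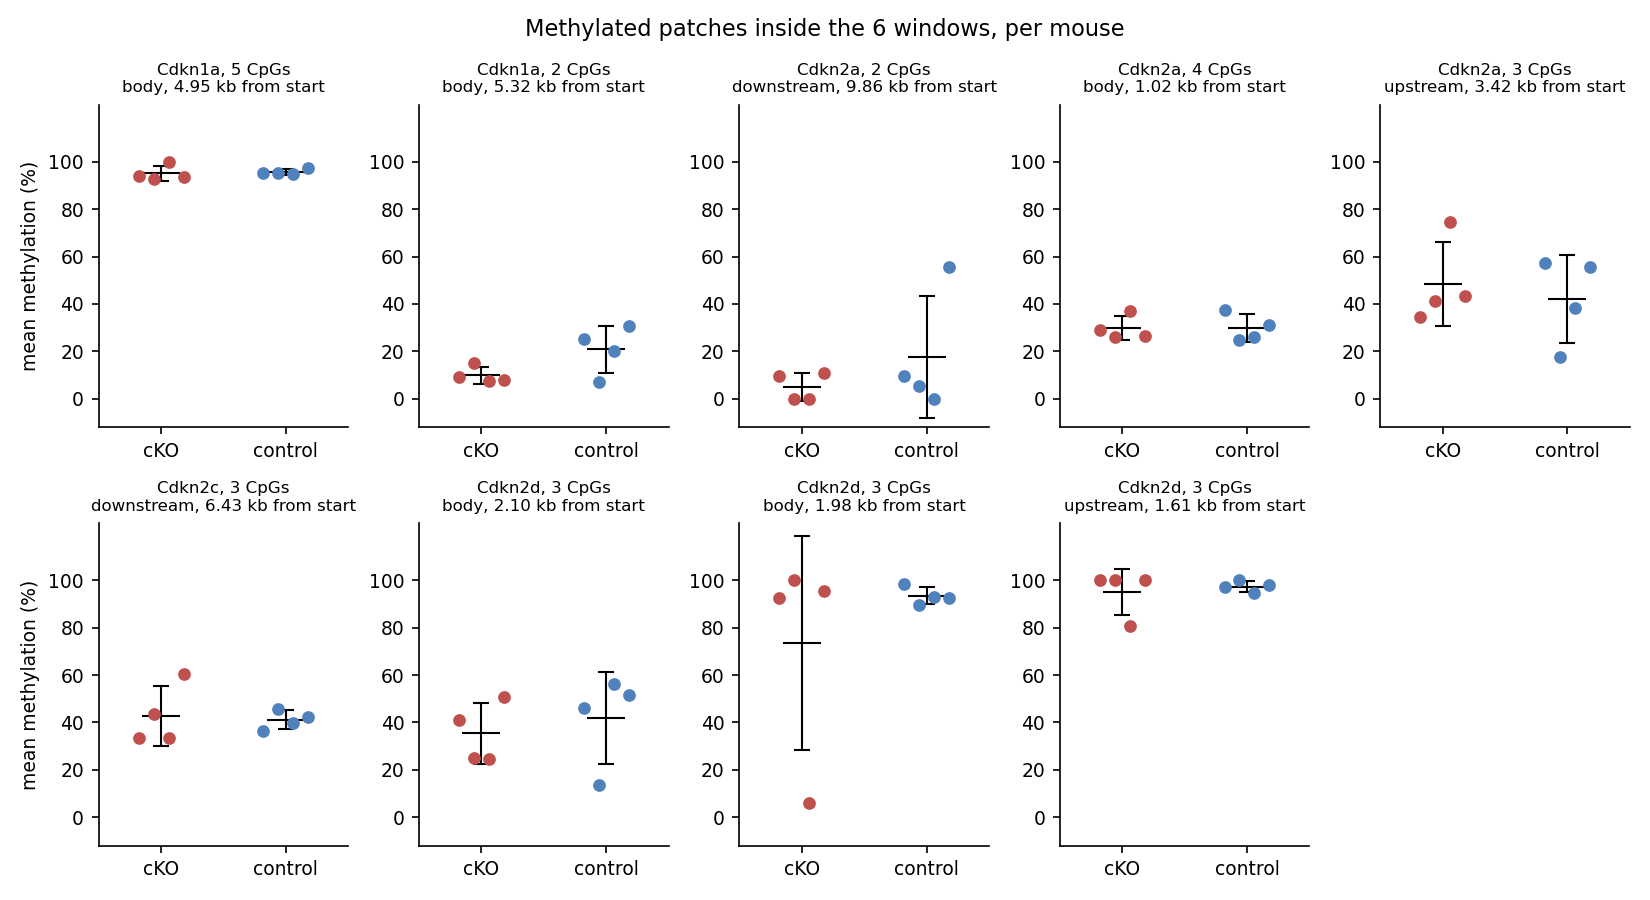
Mean methylation (%) of the 9 runs of neighbouring CpGs at 10% or more inside the 6 windows, 1 point per mouse, cKO left of control, with mean and SD of 4 mice (SD bars may pass 0 or 100%). Single mice stand apart, such as cKO 45 at 6.15% in the body of Cdkn2d and control 37 at 55.7% downstream of Cdkn2a.

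The 9 patches hold 28 of the 33 CpGs with a mean of 10% or more, only 1 of which lies within 1 kb of a start. They were defined after the values were seen, as runs of at least 2 such CpGs covered in all mice and no more than 100 bp apart, so they are a description. All 9 had overlapping groups. Besides those above, a pair of CpGs 2141 bp past the end of Cdkn2a, at 89272309 and 89272332, was at 9.44%, 0%, 0% and 10.8% in the cKO mice, against 9.48%, 5.56%, 0% and 55.7% in the controls. Of the 31 member CpGs at 5 to 95% that were covered in all mice, cKO 45 had 16 at exactly 0 or 100%, cKO 28 had 11 and control 34 had 9, against 2 in control 37. The part of these all-or-none values in the differences above was not tested.

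**Figure D4:**
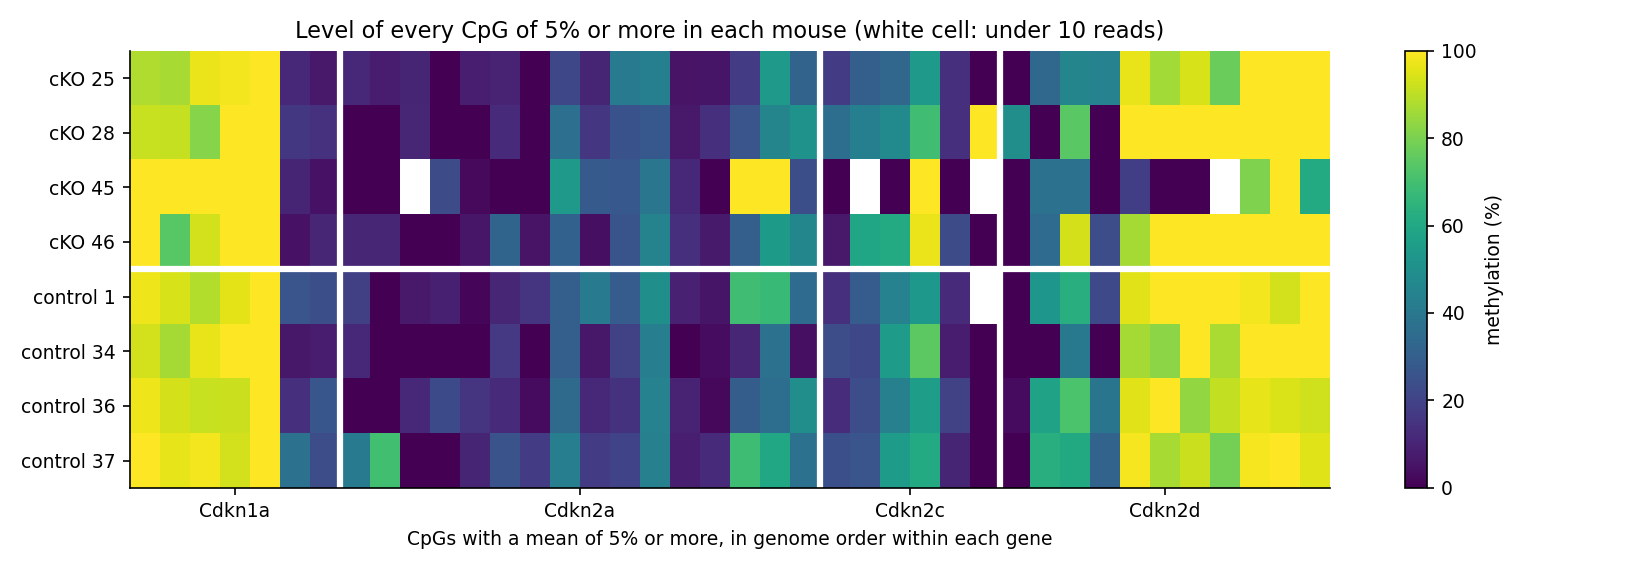
Methylation (%) of the 40 member CpGs with a mean of 5% or more, 1 column per CpG and 1 row per mouse, cKO mice above controls. Cdkn1a and Cdkn2d hold the highly methylated columns, and the row of cKO 45 departs from the other 7 in Cdkn2d.

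**Figure D5:**
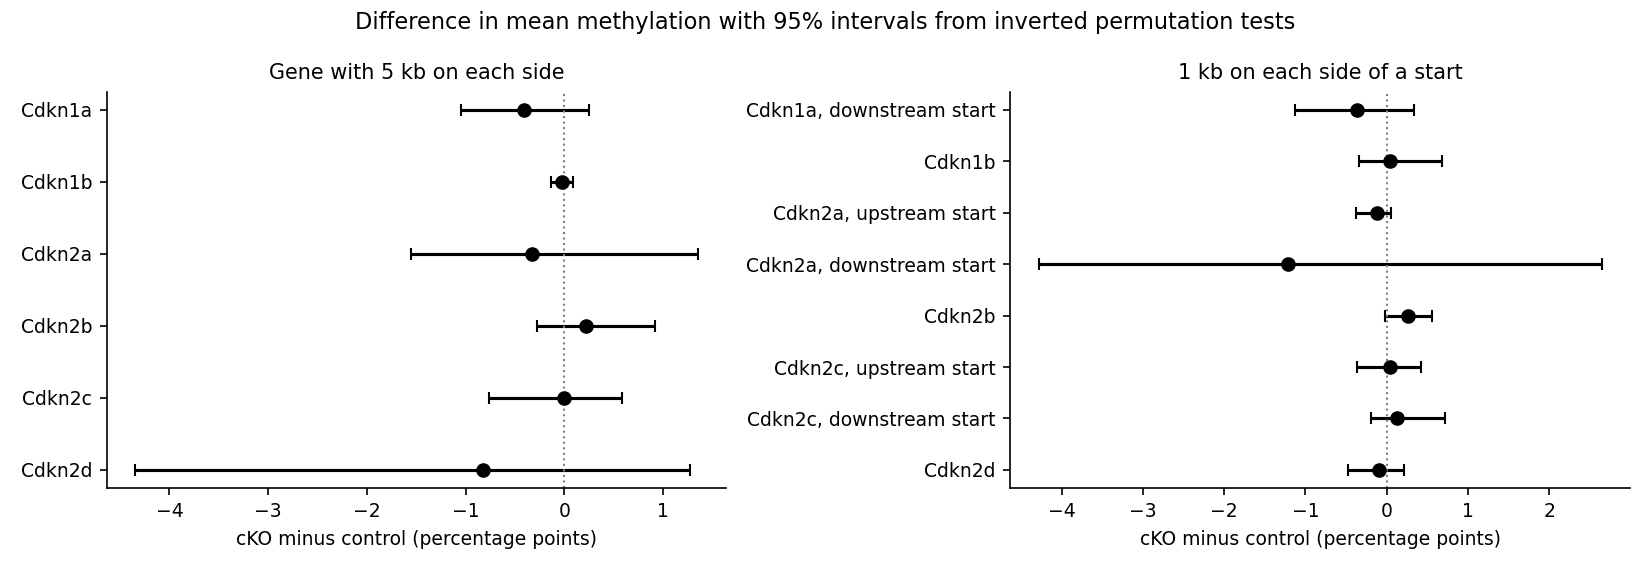
Difference in mean methylation, cKO minus control, in percentage points, for each gene window (left) and each measured start region (right), with 95% intervals. All intervals include 0, and the widest are those of Cdkn2d among the windows, from -4.35 to 1.27, and of the downstream Cdkn2a start, from -4.29 to 2.65.

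Intervals of all 6 windows and all 8 measured start regions included 0. Among the windows, the intervals of Cdkn1b, Cdkn2b and Cdkn2c stayed within 1 point of 0 and those of Cdkn1a and Cdkn2a within 2 points, while that of Cdkn2d was wider. Among the starts, the p16 start had the widest interval, given above. Of the 14 differences, none passed at an exact permutation p of 0.05, and the smallest p was that of the Cdkn2b start.

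Other genes of the pathway were compared in the same way. Of 42 autosomal genes for cyclins and their kinases, retinoblastoma and E2F proteins and upstream regulators of the inhibitors, all 42 were measured, 34 windows were in the tested range and 0 were called, with 0 also called by limma and edgeR among all windows. At an unadjusted p under 0.05 there were 2, both lower in the cKO mice on summed reads, against 2.95% of all windows. Of the 430 windows with such a p among all windows, 389 were likewise lower in the cKO mice. The median window level of the list was 6.7%, and 36 of the 42 had a start under 1%, each gene being counted by its lowest start. Of all 15739 measured gene starts, counted singly, 66.9% were under 1%, so the 2 shares are not of the same kind. Ccnd3, for cyclin D3, was at 0.0995% at its lowest start and at 74.6% at its highest. The median difference of the list was -0.0188 points in unweighted means. Only Ccna2, the gene for cyclin A2, had no start under 5%, at 20.6%. Its whole window, with 82 CpGs, averaged 3.74%, so the CpGs outside that start region were lower still.

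The direction at several of these genes depended on how reads were combined. Skp2 had the smallest p, with 4.61% ± 0.196 in the cKO mice and 4.6% ± 0.133 in the controls in unweighted means, and -1.64 points on summed reads (unadjusted p = 0.022; quasi-binomial adjusted p = 1). Cdk7, of the kinase that activates other cyclin-dependent kinases, was at 19.1% ± 0.522 in the cKO mice and 18.8% ± 0.288 in the controls, with -4.61 points on summed reads (unadjusted p = 0.0225). Ccnd2, for cyclin D2, and Rbl2, for the retinoblastoma relative p130, were likewise higher in unweighted means, by 0.38 and 1.02 points, and lower on summed reads, by -3.77 and -12.8 points. Gfi1, a repressor needed for stem cell quiescence, was higher on both measures, with 7.23% ± 2.02 in the cKO mice and 4.6% ± 1.29 in the controls (difference 2.62 points, interval -0.908 to 6.49; unadjusted p = 0.103). Cdc25a was at 12.4% ± 0.245 in the cKO mice and 12.6% ± 0.626 in the controls (SD, n = 4 each). Smad4 was at 3.45% ± 0.376 in the cKO mice and 3.68% ± 0.116 in the controls, and Foxo1 at 7.24% ± 0.448 in the cKO mice and 7.34% ± 0.31 in the controls. Libraries differed in their coverage of methylated CpGs, as given above, and the part of that in the summed reads was not tested.

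Cdkn1c, the imprinted gene for p57, had a higher level than any of the 6 genes in every mouse. Its window averaged 26.7% ± 3.19 in the cKO mice and 30.4% ± 5.15 in the controls (SD, n = 4 each; 107 CpGs; interval of the difference -11.8 to 7.62 points; quasi-binomial adjusted p = 1), and its start region 28.2% ± 5.65 in the cKO mice and 31.5% ± 4.82 in the controls. The lowest mouse was at 25.2% at the Cdkn1c start, while no mouse exceeded 4.29% at any start of the 6 other inhibitors.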

How the data were processed

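Each deposited table holds, for a single mouse, cytosines of CpGs measured by bisulfite sequencing. The authors deposited the coverage, a read count of at least 10 per cytosine, and the percent of C and of T among these reads. CASAVA 1.8.2, Bismark and mm10 are named in the submitters' processing notes; how reads were filtered is not stated there. Reads carry no molecular identifiers, so coverage overstates the molecules behind a level.

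Read numbers for C and T were taken as coverage times percent, rounded, and strands were merged. Levels of windows, starts (1 kb on each side) and patches are unweighted means over CpGs with 10 or more reads in all 8 mice. CpGs and 1 kb tiles (3 or more CpGs) were tested at 5 to 95%, gene windows (5 or more CpGs) and starts (3 or more) at 1 to 99%, on summed reads, by the quasi-binomial model with squeezeVar (limma 3.58.1, R 4.3.3; spread not under 1), Benjamini-Hochberg over all features. The model was also run on simulated reads, but the outcome is not given here and no statement above rests on it. edgeR 4.0.16 and limma on percentages were alternatives. Exact permutation tests ran over all 70 arrangements of the mice (0.0286 is the lowest p possible) and were inverted for 95% intervals. Of 24293 starts, 20085 came from the promoter table and the rest are the gene end with more CpGs. The 2 most alike libraries, controls 1 and 36, still differed by 9.11 points per CpG at 5 to 95%, so all 8 were kept as separate.

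Genes named are the 6 members, the 8 pathway genes with the smallest window p and Cdkn1c. In each member, the tested tiles, the up to 3 CpGs with the smallest p and that of largest spread are named. Patches, Ccna2, Ccnd3 and other single CpGs were added after values were seen. The members and lists were chosen with earlier results of these data known.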

Additional observations from a re-analysis of the deposited data

Results flagged for a closer look

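In groups of 4, a mouse was singled out when its gap to the nearest other mouse was a large part of the range of the group (Dixon's test at 95%). This happened 21 times in 84 groups looked at. Chance flags about 1 in 20 groups, but that rate does not apply here and the number is only a description: many groups are CpGs picked for large spread or small p or patches picked after the values were seen, groups share CpGs, and where the other 3 mice are all at 0% or all at 100% any other value is singled out. The part of coverage or of all-or-none values in them was not tested.

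cKO 45 stood apart 8 times: in the Cdkn2d window (3.72%, other cKO mice 7.67 to 8.18%), in the Cdkn2d patch at 21289221 (6.15%, others 92.3 to 100%) and its CpG 21289231 (0%, others 94.1 to 100%), in the patch at 21292824 (80.5%, others 100%) and its CpG 21292858 (61%, others 100%), at Cdkn2a CpG 89298038 (100%, others 17.9 to 30.4%), and at CpGs 134927331 of Cdkn1b (16.3%, others 0%) and 89311136 of Cdkn2b (27.2%, others 0%).

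The other cKO mice stood apart at the Cdkn1b start (cKO 25 at 0.726%, others 0.0216 to 0.0577%), at Cdkn2a CpG 89293556 (cKO 25 at 41.2%), at the downstream Cdkn2c start (cKO 28 at 0.800%, others at most 0.14%), at Cdkn2d CpG 21287640 (cKO 28 at 49.2%) and at Cdkn2a CpG 89274856 (cKO 46 at 5.37%).

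Among the controls, control 34 was low in the Cdkn2d window (6.92%, other controls 7.96 to 8.07%), in its 1 kb tile at 21289001 (51.6%, others 72.1 to 74.6%) and at Cdkn1a CpG 29099149 (7.77%, others 23.7 to 26.9%). Control 37 was high in the Cdkn1a patch at 29098721 (97.6%, others 94.9 to 95.2%), at Cdkn1a CpG 29094234 (31.6%, others 0%) and in the Cdkn2a patch at 89272309 (55.7%, others 0 to 9.48%). Control 36 was at 1.16% at Cdkn2b CpG 89311136 and at 2.78% at Cdkn2d CpG 21287640, where the other controls were at 0%.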

How the results depend on the processing

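No member was called over all features under any alternative run. The number of called CpGs among all autosomal ones, 24, was 40 with 20 or more reads, 1 without the CpGs of highest coverage, 0 when tested from 1 to 99% and 8 with limma, and 0 to 93 with each mouse left out, highest without cKO 45. Called 1 kb tiles, 0, became 6 when tested from 1 to 99% and 0 to 33 with a mouse left out, highest without control 34, and called starts 0 to 1 (1 without cKO 25 or control 34). Called windows stayed at 0, but the percent of all windows at an unadjusted p under 0.05, 2.95, ran from 0.945 without control 36 to 24.5 without control 34, where the smallest p of a member window was 0.00106 (quasi-binomial adjusted p = 0.087).

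Of 36 processing alternatives for the member windows 6 turned the direction, and of 24 for the starts 4 did, all on differences under 0.3 points. The Cdkn1b window was 0.0262 points with 20 or more reads and 0.0176 with 2 kb on each side. The Cdkn2b window was -0.22 on the forward strand alone. The Cdkn2c window was 0.149 with CpGs covered in at least 3 mice of each group, 0.25 on the forward strand and 0.0806 with 2 kb on each side. With 500 bp on each side the downstream Cdkn2c start was -0.0508 and the upstream one -0.0423, which was also -0.0302 with 20 or more reads and -0.023 with summed reads. With each mouse left out, differences ran from -0.584 to -0.281 points for the Cdkn1a window, -0.0487 to 0.0123 for Cdkn1b, -0.678 (without control 34) to -0.0619 (without control 37) for Cdkn2a, 0.0614 (without cKO 45) to 0.331 (without cKO 46) for Cdkn2b, -0.158 to 0.159 for Cdkn2c and -1.25 to 0.24 for Cdkn2d, and at starts from -0.552 (without control 34) to -0.138 (without control 1) for Cdkn1a, -1.89 (without control 37) to -0.466 (without control 1) for p16, -0.15 to -0.0613 for Arf, -0.132 to 0.103 (Cdkn1b), 0.215 to 0.325 (Cdkn2b), -0.0492 to 0.208 and -0.0505 to 0.111 (Cdkn2c, downstream and upstream) and -0.148 to 0.00285 (Cdkn2d). The cause was not tested. No paired analysis was possible because the groups share no mouse number. Only 35 CpGs, 4 windows and 1 start of the 6 genes were in the tested range, and the p16 start rests on 7 CpGs.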
